A study of Mus musculus with 4 samples.

Results

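The EGF family ligand and ErbB receptor genes were described in RNA-seq read counts from MIN6 cells with and without overexpression of TLX. The members are the 10 rows of the deposited gene count table, of 23473 gene rows in all, whose name is Areg, Ereg, Hbegf, Tgfa, Btc, Epgn, Egf, Egfr, Erbb2 or Erbb3, which makes 7 ligand and 3 receptor genes. MIN6 cells derive from a mouse insulin-producing tumour and are used in place of pancreatic beta cells. The control group, labelled wild type (control), has 2 libraries, and the TLX overexpression group has another 2, from cells that carry stable overexpression of TLX, the orphan nuclear receptor encoded by Nr2e1. All cells were kept in DMEM with 25 mM glucose and 15% FCS. The promoter that drives TLX, whether the stable cells are a clone or a pool, and whether the controls carry an empty vector were not stated in the labels. Nothing in the labels says that the libraries of a group came from separate cultures, so a p-value measures only the spread between these libraries, which may be technical.

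Ligands of the EGF family are made as membrane-anchored precursors, from which metalloproteases such as ADAM17 and ADAM10 release the soluble factor. They bind receptor tyrosine kinases of the ErbB family, which then dimerise and signal through Ras and ERK, PI3K and Akt, and STAT factors. Amphiregulin (Areg), TGF-alpha (Tgfa), epigen (Epgn) and EGF (Egf) bind EGFR, while epiregulin (Ereg), HB-EGF (Hbegf) and betacellulin (Btc) bind EGFR and ERBB4. ERBB2 has no known soluble ligand and acts as a partner in dimers, and ERBB3, whose kinase is weak, binds neuregulins. EGFR signalling is known to support the growth of beta cell mass, and betacellulin was purified from the medium of mouse beta cell tumour cells.

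The stretches upstream of 4 members are shown because these genes differ in how they behaved here: Areg, the ligand with the largest difference between the groups, Btc, a near-silent gene on the same chromosomal stretch, Tgfa, a ligand with overlapping groups, and Egfr, which had no counts. Each is the 250 bases before the RefSeq start on build GRCm38.p6, read 5′ to 3′ on the strand of the gene, and lies at chr5:91139349-91139598 for Areg, chr5:91402995-91403244 for Btc, chr6:86194972-86195221 for Tgfa and chr11:16751953-16752202 for Egfr. Capitals mark every match, on either strand, to 5 motifs. The cAMP response element (CRE) was searched as TGACGTCA, which reads the same on both strands. The GC box was searched as GGGCGG. For the TATA box the letters were TATAAA. An AP-1 site was taken as TGACTCA. The monomer site bound by TLX was taken as AAGTCA.
Areg: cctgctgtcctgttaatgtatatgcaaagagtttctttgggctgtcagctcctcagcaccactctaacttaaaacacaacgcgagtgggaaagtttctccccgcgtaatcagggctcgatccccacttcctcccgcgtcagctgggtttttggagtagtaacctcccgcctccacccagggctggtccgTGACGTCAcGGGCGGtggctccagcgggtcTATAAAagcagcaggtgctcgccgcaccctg
Btc: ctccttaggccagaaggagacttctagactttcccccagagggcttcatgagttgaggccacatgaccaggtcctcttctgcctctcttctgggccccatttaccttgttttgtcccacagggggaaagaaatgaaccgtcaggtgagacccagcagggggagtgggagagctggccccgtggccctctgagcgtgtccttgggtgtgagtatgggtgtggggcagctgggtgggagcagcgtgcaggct
Tgfa: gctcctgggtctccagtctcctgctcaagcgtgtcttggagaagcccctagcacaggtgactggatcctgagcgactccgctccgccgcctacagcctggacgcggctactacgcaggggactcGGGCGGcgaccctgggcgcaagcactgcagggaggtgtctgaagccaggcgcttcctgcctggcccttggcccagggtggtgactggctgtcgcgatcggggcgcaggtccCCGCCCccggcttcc
Egfr: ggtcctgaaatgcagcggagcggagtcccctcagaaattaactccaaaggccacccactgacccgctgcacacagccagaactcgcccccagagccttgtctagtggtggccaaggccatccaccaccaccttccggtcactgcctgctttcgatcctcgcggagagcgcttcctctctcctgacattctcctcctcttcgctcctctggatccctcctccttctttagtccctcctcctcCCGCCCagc
In Areg the CRE ran from 61 to 54, the GC box from 52 to 47 and the TATA box from 31 to 26 bases before the start, with no overlap between them. The Btc stretch held none of the 5 motifs, Tgfa held 2 GC boxes and Egfr 1. Of 32851 RefSeq windows of the same 250 bases, 1.55% held the CRE, 32.7% the GC box, 12.4% the TATA box, 4.46% the AP-1 site and 13.1% the TLX monomer site. A match is a description of letters and no measured site, and the absence of one says only that these letters are not in this window. Promoter windows were taken for 7 of the 10 members, and those of Ereg, Hbegf and Erbb3 were not examined. Among the windows not printed, that of Epgn held a TATA box from 86 to 81 bases before the start. Those of Egf and Erbb2 held none of the 5 motifs.

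Gene rows held 8136185 to 9788646 counts per library. Nr2e1 had 8 and 10 counts in control and 338 and 281 in TLX, so the targeted gene followed the labels. Beta cell markers were scarce in both groups. Of 12 such genes 8 were at 0 in all 4 libraries (Iapp, Nkx6-1, Neurod1, Slc2a2, Slc30a8, Chga, G6pc2 and Pcsk1). Ins1 (70 to 98 counts per library), Ins2 (32 to 50), Pdx1 (33 to 40) and Mafa (14 to 19) were detected in all 4 libraries. The summed level of the 12 genes was 18.3 to 20.6 CPM (counts scaled to the TMM-adjusted gene-row total of the library) in control and 20.8 to 21.7 CPM in TLX. Of 11 fibroblast and mesenchymal genes 6 averaged at least 5 CPM, with a sum of 5889 to 6238 CPM in control and 6437 to 6540 CPM in TLX, although Lum was at 0 and Dcn, Thy1, Acta2 and Col3a1 were near it. The sum is mostly Col1a2 and Vim, and its members went different ways: Col1a2 rose (log2 fold change 0.28, edgeR adjusted p = 0.0434), while Fn1 (-0.76, 4.34e-07) and Pdgfrb (-0.73, 0.00647) fell. These marker levels go against the beta cell label, and neither the identity of the cells nor the annotation behind the rows at 0 was tested. Sums for 8 epithelial and duct genes were 79.5 to 81.5 CPM in control and 58.7 to 61.4 CPM in TLX, with Epcam and Krt19 among those at 0; Sox9 fell (-1.37, 1.57e-07) and Krt7 rose (1.77, 0.00151). For 6 leukocyte genes the sums were 102 to 104 and 86.3 to 87.5 CPM, with Emr1 among those at 0 and Ptprc at 1 count or fewer per library, and Cd68 fell (-0.53, 0.000391). The 4 endothelial genes summed to at most 0.302 CPM in any library. The part of these differences between the groups in the results that follow was not tested.

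Transcripts of 3 ligands, Areg, Ereg and Hbegf, were lower in TLX cells, while Tgfa and the receptors Erbb2 and Erbb3 differed little. The members were listed by symbol, but the family was chosen by the difference in counts between the control and TLX libraries, so their values are a description and no test is given for them. Of the 6 members with enough counts to be fitted, 3 met the call rule of the fit over all genes (edgeR quasi-likelihood test, adjusted p under 0.05) as lower and 0 as higher. Among all 11024 genes fitted 9.04% met it as lower and 7.79% as higher, and 3.37% were called lower with a fall of at least 1.5-fold. The median log2 fold change of the 6 was -0.62, beside 0.00057 over all genes fitted. Btc, Epgn, Egf and Egfr had too few counts to be fitted. In RNA from whole cultures, fewer cells that express a gene and less RNA per cell cannot be told apart.

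Areg, which encodes amphiregulin, showed the largest difference. Its counts were 112 and 158 in control and 33 and 45 in TLX. Library sizes were adjusted by TMM, a scaling factor per library meant to reduce the effect of differences in composition. On this scale the counts are 13.4 and 15.9 CPM in control against 3.81 and 5.67 CPM in TLX. Both TLX libraries lay well below both control libraries, and the groups did not overlap. Mean levels were 14.6 ± 1.8 and 4.74 ± 1.32 CPM (SD, n = 2). The log2 fold change was -1.64, with a standard error (SE) of 0.19, which is a level 3.12-fold lower in TLX. Ordered by log2 fold change from the lowest, Areg stood at place 24 of the 11024 genes. Its counts are the smallest of the 3 ligands that were lower, and TLX replicate 1 held fewer of them than TLX replicate 2, so that its log2 fold change was -1.94 without TLX replicate 2 and -1.37 without TLX replicate 1.

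Ereg, which encodes epiregulin, held the most counts of any ligand. It was counted 982 and 1409 times in control and 492 and 523 times in TLX. Its level was 118 and 142 CPM in control and 56.8 and 65.9 CPM in TLX, so the lowest control library was above the highest TLX library. The log2 fold change was -1.08 (SE 0.10), a level 2.12-fold lower, at place 101 of all genes. Control replicate 2 was the highest library, and the log2 fold change without it was -0.94.

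Hbegf, which encodes HB-EGF, the ligand that is also the diphtheria toxin receptor, was counted 754 and 793 times in control and 363 and 383 times in TLX. Its level was 90.2 and 79.8 CPM in control and 41.9 and 48.3 CPM in TLX. The groups were again apart, with a log2 fold change of -0.91 (SE 0.10), a level 1.88-fold lower, at place 172 of all genes.

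Tgfa, which encodes TGF-alpha, was counted 99 and 128 times in control and 111 and 105 times in TLX. Its level was 11.9 and 12.9 CPM in control and 12.8 and 13.2 CPM in TLX, and the groups overlapped. The log2 fold change was 0.07 (SE 0.15).

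The remaining ligands were near the limit of detection. Btc, the betacellulin gene, had 4 and 7 counts in control and 5 and 2 in TLX. Egf had 6 and 8 counts in control and 5 and 7 in TLX. Epgn, the epigen gene, had 1 and 2 counts in control and 0 in both TLX libraries, where a count of 0 allows up to 0.347 and 0.378 CPM (3 counts, counting error only), which is above the 0.120 and 0.201 CPM seen in control. No difference between the groups was detectable for these genes at this depth.

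**Figure D1:**
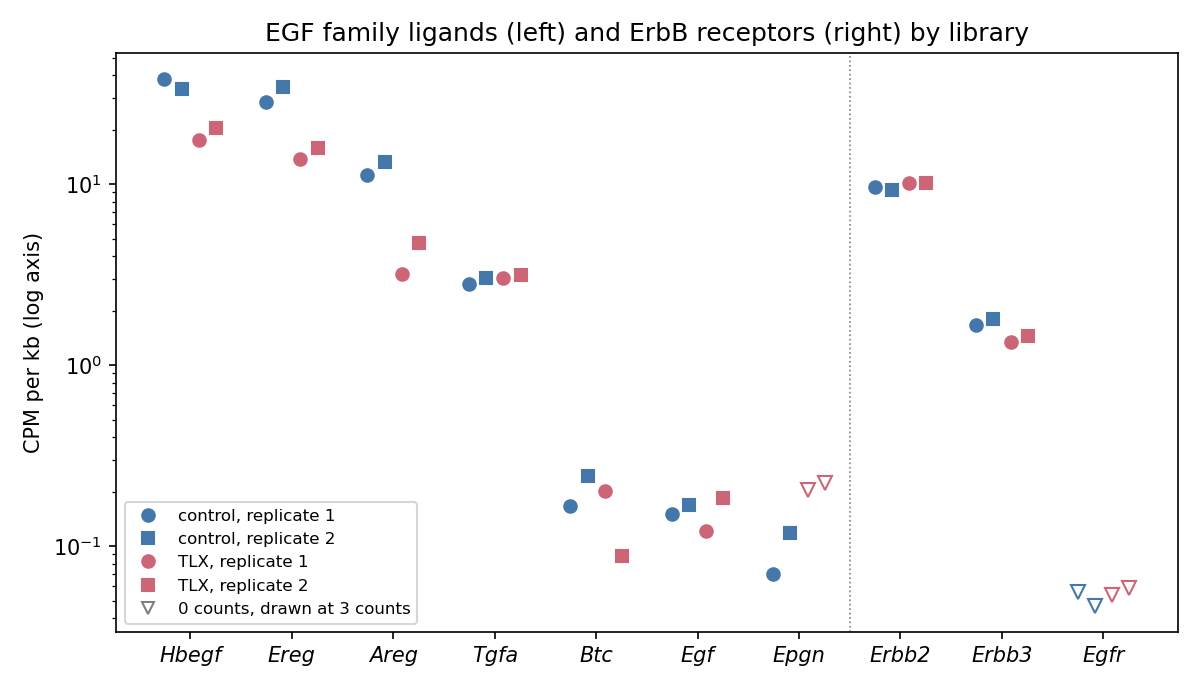
Level per kb of feature length (CPM per kb, log axis) of the 7 ligand and 3 receptor genes in each library; blue is control, red is TLX, circles are replicate 1, squares replicate 2, and open triangles mark 0 counts, drawn at the level of 3 counts. Hbegf, Ereg and Areg lie lower in both TLX libraries than in both control libraries. Tgfa and Erbb2 lie close together across the groups. Erbb3 lies lower in both TLX libraries by a smaller step, and Egfr had 0 counts in all 4 libraries.

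Among the receptors, Erbb2 carried most of the counts and Egfr none. Erbb2 was counted 401 and 463 times in control and 437 and 403 times in TLX, which gave 48.0 and 46.6 CPM against 50.5 and 50.8 CPM. Both TLX libraries were slightly above both controls, with a log2 fold change of 0.10 (SE 0.09). Erbb3 was counted 56 and 72 times in control and 47 and 46 times in TLX, or 6.70 and 7.24 CPM against 5.43 and 5.80 CPM. Both TLX libraries were below both controls, and the log2 fold change of -0.32 had an SE of 0.20. Over the 6 fitted members, 4 had TLX libraries both below controls and 1 both above; among all genes fitted these patterns held for 28.6% and 28.5%.

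Egfr, the receptor shared by all 7 ligands, was listed at 0 in every library, control and TLX alike. With 3 counts as the limit, its level was at most 0.0469 to 0.0587 CPM per kb, depending on the library, so that Erbb2 was at least 172-fold higher per kb in each library. The table also holds rows for cDNA clones, and the clone row that bears a RefSeq synonym of Egfr had 0 counts in all 4 libraries too. Erbb4, the other receptor of Ereg, Hbegf and Btc, was at 0 as well. Neither the counting program nor its annotation is known from the labels, and 7738 of the gene rows were at 0 throughout, so these receptors are reported as listed at 0.

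Per kb of feature length, which puts genes on a common scale, the order in control was Hbegf at 35.8 ± 3.1, Ereg at 31.3 ± 4.1, Areg at 12.2 ± 1.5, Erbb2 at 9.46 ± 0.20, Tgfa at 2.92 ± 0.17 and Erbb3 at 1.73 ± 0.10 CPM per kb (SD, n = 2). Hbegf and Ereg did not differ beyond their spread in control: the ratio of Hbegf to Ereg was 1.34 in replicate 1 and 0.980 in replicate 2. Each further step down this order was larger than the spread of the genes on either side. Btc, Egf and Epgn followed at 0.206, 0.160 and 0.0942 CPM per kb, levels made from 8 counts or fewer per library that do not establish an order.

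In TLX the order of levels per kb was Hbegf at 19.0 ± 1.9, Ereg at 14.8 ± 1.6, Erbb2 at 10.1 ± 0.044, Areg at 3.96 ± 1.10, Tgfa at 3.08 ± 0.069 and Erbb3 at 1.40 ± 0.065 CPM per kb. Areg and Erbb2 changed places, since Areg was above Erbb2 in both control libraries (11.2 and 13.3 against 9.60 and 9.32 CPM per kb) and below it in both TLX libraries (3.18 and 4.73 against 10.1 and 10.2 CPM per kb). Areg and Tgfa were neighbours in TLX and differed by less than the SD of Areg.

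The 7 ligands summed to 80.8 and 84.7 CPM per kb in control and to 37.9 and 44.4 CPM per kb in TLX, and the control mean was 2.01 times the TLX mean. The 3 receptors summed to 11.3 and 11.1 CPM per kb in control and to 11.5 and 11.6 CPM per kb in TLX. Ligand transcripts thus stood at 7.17 and 7.62 per receptor transcript in control and at 3.31 and 3.83 in TLX. With Egfr at 0 the receptor sum is Erbb2 and Erbb3 alone, and neither is given above as a receptor that these ligands bind. The ratio therefore compares transcript levels and does not pair ligands with their own receptors. These sums rest on the same contrast by which the members were chosen and carry no test.

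Within the ligand sum the parts held by Hbegf and Ereg were alike in both groups and those held by Areg and Tgfa were not. Hbegf made up 47.0% and 39.7% of the sum in control and 46.6% and 45.8% in TLX, and Ereg 35.2% and 40.5% in control and 36.2% and 35.9% in TLX. Areg made up 13.8% and 15.7% in control and 8.38% and 10.7% in TLX. Tgfa made up 3.47% and 3.60% in control and 7.99% and 7.05% in TLX, while its own level per kb stayed between 2.80 and 3.13 CPM per kb over the 4 libraries. The ratio of Areg to Ereg per kb was 0.393 and 0.387 in control and 0.231 and 0.297 in TLX, so Areg was lower relative to Ereg in both TLX libraries. Among receptors the ratio of Erbb2 to Erbb3 per kb was 5.76 and 5.17 in control and 7.48 and 7.05 in TLX.

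**Figure D2:**
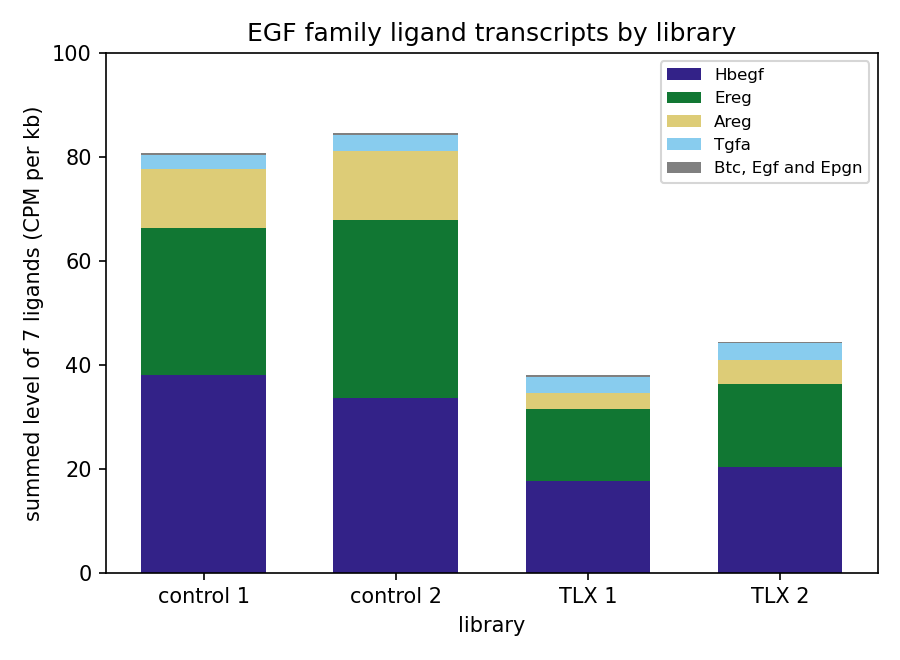
Summed level of the 7 ligand genes (CPM per kb, vertical axis from 0) in each library, with the part of each gene stacked by colour. The control libraries reach 80.8 and 84.7 and the TLX libraries 37.9 and 44.4 CPM per kb, with Hbegf and Ereg as the largest parts in all 4.

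Epgn, Ereg, Areg and Btc lie close together on chromosome 5, in that order in the RefSeq gene table of GRCm38.p6, with Gm19619 between Areg and Btc and a group of chemokine genes beside Epgn. Of the 4, Ereg and Areg were expressed and lower in TLX, and Epgn and Btc were near 0 in all libraries. The 8 gene rows on either side were examined in the same fit (edgeR, adjusted over all 11024 genes). Of these 16 rows 7 were tested: 2 fell, 1 rose and 4 did not pass, with a median log2 fold change of -0.19. Of all genes tested 16.8% were called.

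Cxcl1, which encodes a neutrophil-attracting chemokine and is separated from Epgn by 2 gene rows, fell. It was counted 1246 and 1492 times in control and 344 and 290 times in TLX (log2 fold change -1.97, SE 0.09, adjusted p = 3.97e-13). Mthfd2l, a gene of mitochondrial folate metabolism that lies between Cxcl1 and Epgn, had 85 and 90 counts in control and 79 and 61 in TLX, with overlapping groups and a log2 fold change of -0.18 (SE 0.17, adjusted p = 0.526). Counts of the other chemokine genes on that side, Cxcl2, Cxcl3, Cxcl5, Pf4 and Ppbp, did not exceed 9 in any library.

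On the side of Btc, Rchy1, which encodes a ubiquitin ligase, fell slightly (log2 fold change -0.29, SE 0.09, adjusted p = 0.0252) and G3bp2, which encodes a stress granule protein, rose slightly (0.27, SE 0.08, adjusted p = 0.0236). Neither passed in DESeq2 (adjusted p = 0.174 and 0.101), without TLX replicate 1 (0.261 and 0.316) or without TLX replicate 2 (0.116 and 0.114), and G3bp2 did not pass without control replicate 1 (0.0515). The adjusted p of Rchy1 lay between 0.00238 and 0.261 over the alternatives, and that of G3bp2 between 0.000593 and 0.316. Thap6 (log2 fold change -0.45, SE 0.17, adjusted p = 0.0692), Cdkl2 (-0.19, SE 0.13, 0.351) and Uso1 (0.05, SE 0.09, 0.756) did not pass. Thap6 passed with no filter on low counts (0.0398), with a filter of 10 CPM (0.0473) and without TLX replicate 2 (0.0408), and its adjusted p lay between 0.0263 and 0.472 over the alternatives.

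**Figure D3:**
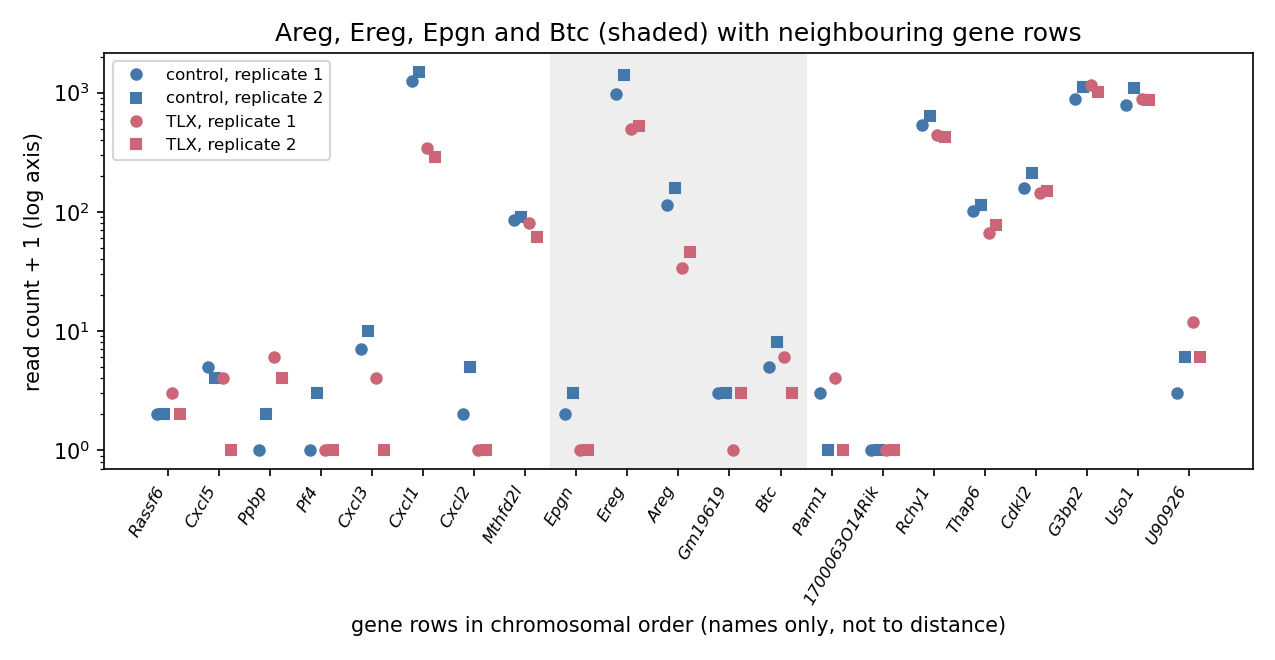
Read count plus 1 (log axis) in each library for Epgn, Ereg, Areg and Btc (shaded, with 1 further gene row between Areg and Btc) and the 8 gene rows on either side, in chromosomal order without distances; colours and symbols show the library. Cxcl1, Ereg and Areg have lower counts in both TLX libraries than in both control libraries, and most genes between them and around them are near 0 or differ little.

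Genes whose profile over the 4 libraries was most like that of Areg were sought among 9642 others that average at least 5 CPM, by the Euclidean distance between log2 CPM values centred on each gene's mean. The nearest were Angptl4, an inhibitor of lipoprotein lipase (distance 0.25), Htra1, a secreted protease (0.37), Ptgs2, the inducible cyclooxygenase (0.37), Ddit3, the stress factor CHOP (0.38), and Lgr6, an R-spondin receptor (0.39). Angptl4 had 23.1 and 24.4 CPM in control and 6.35 and 7.81 CPM in TLX. Cxcl1 was at place 30 in this order, Ereg at 33, Hbegf at 90 and Erbb3 at 910. With 4 libraries this is a description of profiles alike in these samples, with no test.

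The wider pathway was read from 9 lists of 127 genes other than the members, of which 113 were tested in the fit over all genes. Of these 11 rose and 14 fell, which is 22.1% beside 16.8% of all genes tested. Of the 14 that fell 11 belong to the list of genes known to be induced by ERK signalling. That list was written with earlier results for some of its genes in these libraries known, so it is no independent evidence of a direction. Without that list 9 rose and 3 fell of 93, or 12.9%. The median log2 fold change was 0.01 over all lists. In DESeq2 3 rose and 12 fell, without TLX replicate 1 the numbers were 7 and 11, and without TLX replicate 2 they were 2 and 11.

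Other ErbB family genes were few. Nrg1, a neuregulin ligand of ERBB3 and ERBB4, had 136 and 152 counts in control and 104 and 102 in TLX, with a log2 fold change of -0.34 that did not pass (SE 0.14, adjusted p = 0.102). A clone row that bears a RefSeq synonym of Nrg1 held 68 and 91 counts in control and 56 and 45 in TLX, and was not tested. Nrg4 had 40 and 49 counts in control and 37 and 30 in TLX (log2 fold change -0.27, SE 0.23, adjusted p = 0.477). Nrg3 and Erbb4 were at 0, and Nrg2 had 4 to 8 counts per library.

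Most genes that release the ligands from the membrane differed little. Of 13 tested 1 rose and 0 fell, 7.69% called beside 16.8% of all genes tested, with a median log2 fold change of 0.09. The gene that rose was Adam12, a metalloprotease with 12 and 7 counts in control and 24 and 25 in TLX (log2 fold change 1.49, SE 0.37, adjusted p = 0.00706), and it did not pass without control replicate 2 (0.132) or TLX replicate 2 (0.0534; 0.00109 to 0.132 over the alternatives that gave one). Adam17, the main sheddase of Areg, Ereg, Hbegf and Tgfa, stood at 49.2 and 48.8 CPM in control and 46.3 and 45.6 CPM in TLX (log2 fold change -0.09, SE 0.09, adjusted p = 0.551). Adam10, which releases Btc and Egf, stood at 40.2 and 36.6 against 37.5 and 44.1 CPM (0.09, SE 0.10, 0.621). The Adam17 partners Rhbdf1 and Rhbdf2, which encode iRhoms, had log2 fold changes of 0.23 and -0.23 (SE 0.09 for each, adjusted p = 0.0803 and 0.0909). Rhbdl2, with 15 and 14 counts in control and 29 and 20 in TLX, had a log2 fold change of 0.89 that did not pass (SE 0.33, edgeR adjusted p = 0.0674). Adam17, Adam10, Rhbdf1, Rhbdf2 and Rhbdl2 were chosen after their values were seen.

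Inhibitors of the receptors and their ubiquitin ligases changed in both directions: of 13 tested 2 rose and 2 fell. That is 30.8% called beside 16.8% of all genes tested, with a median log2 fold change of -0.05. Errfi1, which encodes MIG6, a feedback inhibitor that binds the kinase domains of ErbB receptors, fell most. Its level was 166 and 188.5 CPM in control and 86.8 and 94.3 CPM in TLX (log2 fold change -0.97, SE 0.08, adjusted p = 2.31e-08), with the groups far apart. Rnf41, the ubiquitin ligase of ERBB3, fell from 109 ± 11 to 89.8 ± 4.5 CPM (adjusted p = 0.0272). Ankrd13a, which binds ubiquitinated EGFR, rose from 96.7 ± 6.4 to 124 ± 0.81 CPM (adjusted p = 0.0033). Ptprj, a receptor phosphatase gene, rose from 21.1 ± 1.1 to 27.1 ± 1.6 CPM (SD, n = 2; edgeR adjusted p = 0.0347). The EGFR ubiquitin ligase gene Cbl (log2 fold change 0.03, adjusted p = 0.892) and Lrig1 (-0.09, 0.527) did not pass, and both were chosen after their values were seen.

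Among the carriers of the signal inside the cell the share of genes called, beside 16.8% of all genes tested, varied by list. It was 5.56% for adaptors and Ras regulators, 7.69% for Raf, MEK and ERK, and 5.26% for receptor trafficking. For PI3K and Akt it was 27.3%, and for STAT factors 25.0%, where 1 of 4 genes rose. These shares rest on 4 to 19 genes per list. Of 18 adaptors and Ras regulators 1 rose, Crk (log2 fold change 0.29, SE 0.09, adjusted p = 0.0248). Of 13 genes of Raf, MEK and ERK 1 fell, Rps6ka2, a kinase activated by ERK, from 77.1 ± 5.3 to 46.3 ± 0.64 CPM (adjusted p = 4.07e-06). Of 11 genes of PI3K and Akt 3 rose, among them the regulatory subunits Pik3r3 (log2 fold change 0.65, adjusted p = 0.0139) and Pik3r1 (0.41, 0.0439). Of 19 genes of receptor trafficking 1 rose, Lrrk1, a kinase of EGFR endosomes (0.26, 0.0315).

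Several of these calls were close to the threshold. In DESeq2 the genes Crk, Lrrk1, Pik3r1, Pik3r3, Ptprj and Rnf41 did not pass (adjusted p from 0.108 to 0.254), and Pik3r1 did not pass in limma-voom (0.0579). These 6 genes did not pass without TLX replicate 2 either (0.092 to 0.588). Without TLX replicate 1 the calls of Ankrd13a, Crk, Lrrk1, Ptprj and Rnf41 ended (0.0591 to 0.302), without control replicate 1 those of Crk, Pik3r1 and Rnf41 (0.062 to 0.144), and without control replicate 2 those of Lrrk1 and Ptprj (0.124 and 0.12). Errfi1 and Rps6ka2 passed in every alternative run.

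Transcripts known to be induced by ERK were lower in TLX more often than not. Of 20 tested 11 fell, 2 rose and 7 did not pass, 65.0% called beside 16.8% of all genes, with a median log2 fold change of -0.49. The list was written with earlier results for Myc, Dusp5 and Egr1 in these libraries known, so it is no independent evidence of a direction. Myc had the largest fall, from 276 ± 5 to 98.4 ± 5.1 CPM (adjusted p = 6.61e-12). Dusp5, a phosphatase of ERK, had a log2 fold change of -1.42 (SE 0.11), Phlda1 of -0.90 (SE 0.08) and the transcription factor gene Egr1 of -0.87 (SE 0.08), with adjusted p from 5.17e-09 to 2.39e-08. Ier3, Spry2, Spry4, Junb, Dusp4, Fosl1 and Etv5 also fell, with log2 fold changes from -0.80 to -0.28.

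The genes of this list did not all move together. Spry2 and Spry4, inhibitors of signalling from growth factor receptors to ERK, fell by 0.80 and 0.63 on the log2 scale. The phosphatase genes Dusp5 (log2 fold change -1.42) and Dusp4 (-0.49) fell too. In contrast Spred2, an inhibitor of the same pathway, rose by 0.37 (edgeR adjusted p = 0.00717), as did the transcription factor gene Etv1, by 0.64 (edgeR adjusted p = 0.00706). Dusp6, the phosphatase most specific for ERK, stood at 136 and 134 CPM in control and 124 and 117 CPM in TLX and did not pass (log2 fold change -0.17, SE 0.08, adjusted p = 0.157), and Etv4 (0.02, SE 0.08, 0.904) did not pass. Etv1 and Spred2 did not pass in DESeq2 (adjusted p = 0.12 and 0.0515) or without TLX replicate 2 (0.0561 and 0.133). Fosl1 did not pass without TLX replicate 1 (0.198) or TLX replicate 2 (0.0659), and Etv5 did not pass in DESeq2 (0.214) or without TLX replicate 1 (0.186), TLX replicate 2 (0.215) or control replicate 2 (0.0907). Apart from Myc, Dusp5, Phlda1 and Egr1, the genes of this list were named after their values were seen.

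**Figure D4:**
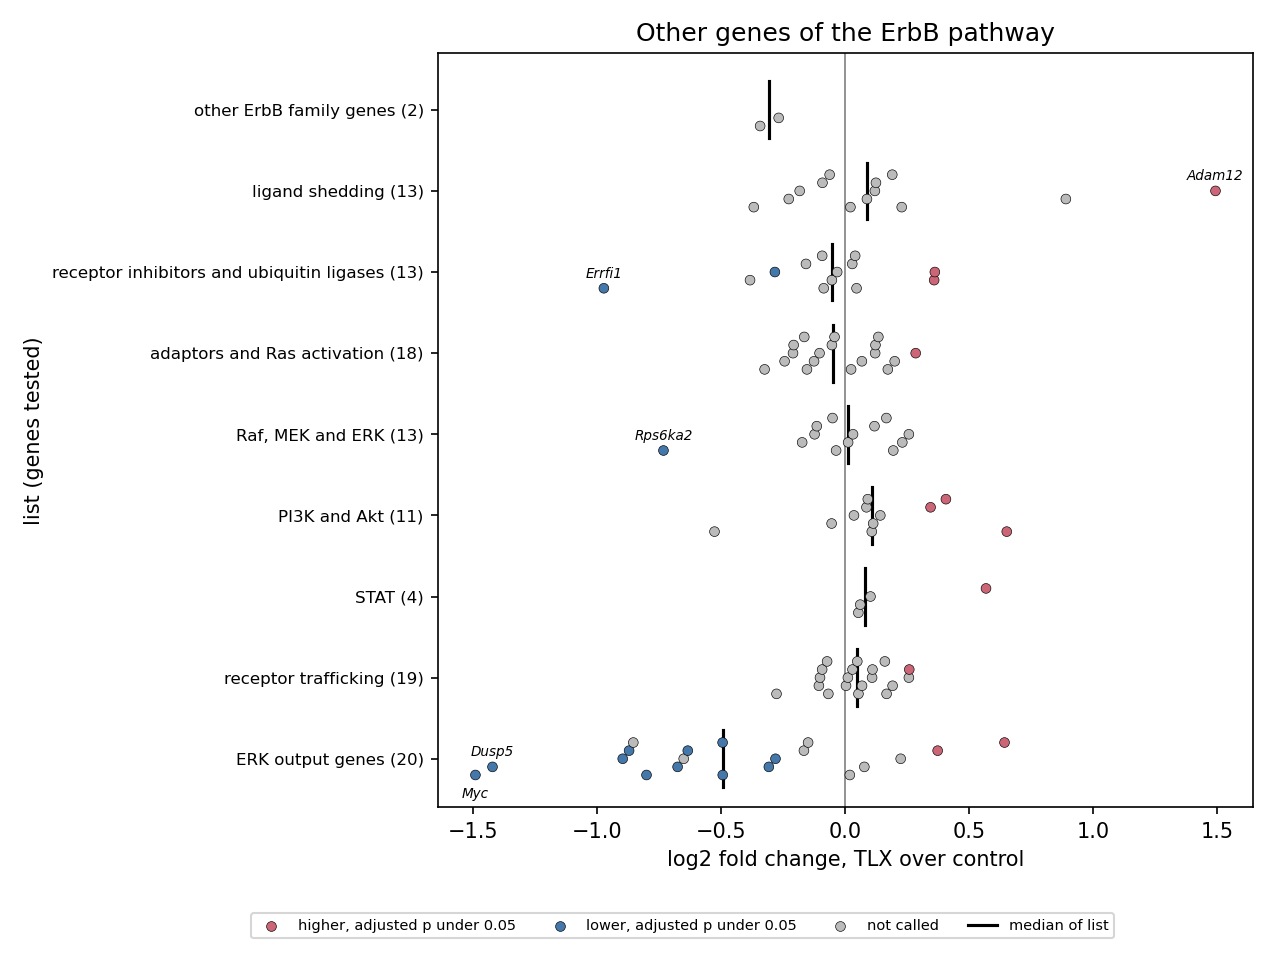
Log2 fold change, TLX over control, of 113 tested pathway genes in 9 lists (number tested in brackets); red points rose and blue points fell at an edgeR adjusted p under 0.05, grey points did not pass, and black bars are list medians. Blue points gather in the list of ERK output genes, whose median is -0.49. That list was written with earlier results for Myc, Dusp5 and Egr1 in these libraries known, so it is no independent evidence of a direction. The medians of the lists of shedding, adaptor, Raf to ERK, PI3K and trafficking genes lie between -0.05 and 0.11.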

How the data were processed

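The authors deposited read counts per feature for the 4 libraries in 1 table, per the file headers with a feature length beside them, and the reads were aligned with TopHat2 2.0.13 to mm9, per the submitters' processing notes. The counting program, annotation, strand setting and treatment of reads with several matches are not given by the labels or headers. Library groups and replicate numbers come from the labels. The table holds 56826 rows, of which 23473 gene rows were used. The 33353 rows named for cDNA clones, with 23.3% to 25.1% of the counts, entered neither library sizes nor tests, and 27 gene rows bear names turned into dates. RefSeq promoter sequences and gene order come from GRCm38.p6, a build other than that of the counts, and were joined by gene symbol only.

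Replicates were compared by a chi-square per gene with at least 50 counts. Its median was 1.13 in the control pair and 0.924 in the TLX pair against 0.455 for sampling noise. Each library was treated as a sample of its own. A spread beyond sampling noise may still be technical and does not show that the libraries came from separate cultures. Gene rows were kept by filterByExpr (minimum count 10), scaled by TMM and fitted with the quasi-likelihood test of edgeR 4.0.16 (R 4.3.3) over 11024 genes with 2 residual degrees of freedom, and p-values were adjusted over all of them by Benjamini-Hochberg. Standard errors are from the same fit. Levels per kb divide CPM by the deposited length. The code was tested on simulated data. Floors and precision rest on 8136185 to 9788646 counts per library and cover counting error only. Alternatives were DESeq2 1.42.0, limma-voom (limma 3.58.1), other scaling and filters, a replicate block and leaving out each library.

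The members and gene lists were chosen with earlier results of these data known. Named were all members, Nr2e1, up to 4 called genes per list with the smallest p (otherwise the 1 with the smallest p), each tested neighbour of the cluster and the 5 genes nearest to Areg. Genes named beyond this rule were chosen after their values were seen. Values of some genes that the naming rule would give are not reported here.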

Additional observations from a re-analysis of the deposited data

How the results depend on the processing

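The log2 fold changes of Areg, Ereg, Hbegf, Tgfa, Erbb2 and Erbb3 kept their direction in every alternative that gave a value. Leaving out 1 library moved Areg from -1.94 to -1.37, Ereg from -1.21 to -0.94 and Hbegf from -1.02 to -0.81. Areg and Erbb3 have no value under a filter of 10 CPM. Over all genes 859 rose and 997 fell. In DESeq2, which gave no adjusted p for 855 genes, 355 rose and 484 fell, and 3 pathway genes rose in place of 11. With 1 library left out, 388 to 993 genes rose and 585 to 1060 fell, and 2 to 12 pathway genes rose and 11 to 17 fell. The low ends for genes that rose came without TLX replicate 2 (388 rose, 636 fell), and without TLX replicate 1 454 rose and 585 fell. These fits leave 1 sample in a group, which is assumed to vary like the other group. The cause of these shifts was not tested.

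With the replicate number as a block, 1495 genes rose and 1487 fell, and 20 pathway genes rose and 23 fell. Thap6, beside the cluster, then passed (adjusted p = 0.0263). The labels do not say that a number marks a shared culture or day. The differences between replicates 1 and 2 correlated across genes between the groups with r = 0.108 over 11024 genes and 0.281 over 6925 genes above 20 CPM, and with 2 pairs this does not establish a pairing.

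Without division by length, Ereg, Hbegf, Tgfa and Areg made up 53.2%, 35.1%, 5.08% and 6.01% of the ligand sum in control and 48.9%, 36.0%, 10.4% and 3.75% in TLX, so that Ereg and not Hbegf was the largest part. The control sum was then 1.94 times the TLX sum in place of 2.01. Counts under about 10 per library limit Btc, Epgn and Egf.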
